A study of Bos taurus with 24 samples.

Results

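The genes of the proteasome were followed in single early bovine blastocysts that had developed in the cow or in 1 of 2 culture systems. They were taken as all rows of the count table whose symbol is PSM followed by a letter from A to G and a digit, leaving out PSMC3IP, which encodes a recombination protein. The rule gave 48 of the 24621 genes of the table, and no expression value entered it. The proteasome is the barrel-shaped protease that degrades proteins tagged with ubiquitin in the cytosol and nucleus of every cell. Its 20S core consists of alpha rings, which gate the entry, and beta rings, which hold the cutting sites, and the 19S particle, made of a base and a lid, recognises, unfolds and feeds in the tagged proteins. Activators other than 19S, an inhibitor and assembly chaperones complete the family, and in the early embryo the system is known for clearing proteins inherited from the oocyte.

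Each of the 24 embryos was a Holstein early blastocyst of the best morphological grade, sequenced on its own, and all shared the same sire. The in vivo group (labels A) held 5 male and 3 female embryos flushed from superovulated cows, so it is not a group from natural cycles. The serum group (labels B) held 3 male and 5 female embryos produced in vitro with fetal bovine serum, 20% during oocyte maturation and 5% during culture. The serum-free group (labels C) held 5 male and 3 female embryos for which epidermal growth factor replaced serum in maturation, and 0.4% bovine serum albumin with insulin, transferrin and selenium replaced it in culture. Both in vitro groups were collected at day 6 to 7 from 3 in vitro experiments, and the serum effect therefore covers maturation and culture together. Neither the in vitro experiment nor the donor cow nor the sequencing lane is labelled per embryo, batches of these kinds could not be separated, and p-values measure the spread between these embryos.

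Exon counts were between 3253051 and 9000447 per embryo, and between 11735 and 14732 genes were detected. The 4 embryos with the fewest detected genes were all from the serum group (B1, B2, B5 and B7, up to 12390 genes). They include all male serum embryos (B1, B5 and B7) and 1 female (B2), so male sex and few detected genes largely coincide in that group. Levels are given as CPM, counts scaled by library total and TMM factors, and since CPM is not corrected for gene length, levels were compared between embryos and never between genes. A gene was tested with edgeR's quasi-likelihood test when 15 counts or more were present in all embryos of 1 group or the other, and it was called at an adjusted p under 0.05 (Benjamini-Hochberg over all tested genes). Fold changes are log2 values of the first-named group over the second, with an approximate standard error (SE). Of the 48 proteasome genes, 44 could be tested in each of the 3 comparisons of all embryos, and 42 of them had at least 15 counts in every in vivo and serum embryo.

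Proteasome genes took up a larger part of the exon counts in the serum group. Their summed share was between 0.954% and 1.16% in the in vivo embryos, between 1.21% and 1.5% in the serum embryos and between 1.03% and 1.33% in the serum-free embryos. The in vivo and serum ranges did not overlap, whereas the serum-free range overlapped both. Within the serum group the 3 male embryos had the highest shares (from 1.34%), above the 5 female embryos (up to 1.31%). The 3 males were also among the embryos with the fewest detected genes. The female B2, likewise with few detected genes (12348), had the lowest share of the serum group (1.21%). The part of either trait was not tested. These sums are descriptions without a test. In whole embryos, a different number of cells of a type and a different amount of RNA per cell cannot be told apart.

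**Figure D1:**
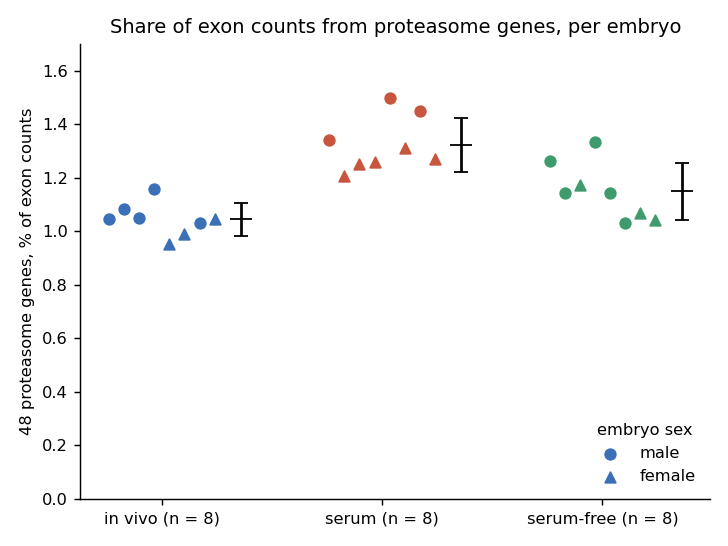
Share of exon counts from the 48 proteasome genes (y axis, percent) in each embryo of the in vivo, serum and serum-free groups, with circles for male and triangles for female embryos and the mean ± SD beside them (n = 8). All serum embryos (1.21% or more) lie above all in vivo embryos (up to 1.16%).

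Between serum and in vivo embryos, single genes of the core, the 19S particle and its assembly factors rose moderately, and the activators PSME2 and PSME4 fell. Of the 44 tested genes 15 were called, 13 of them higher and 2 lower in serum embryos. The 15 were 34.1% of the tested proteasome genes, near the 28.3% called among all 7339 tested genes, of which 14.8% were called higher and 13.4% lower. Of the calls 86.7% were higher in serum embryos, against 52.5% of the calls over all genes, a description for which no test was made. The log2 fold change was positive for 34 of the 44 genes, with a median of 0.28, against 50.9% of all tested genes, with a median of 0.01. The changes were small: only the 2 lower genes, PSME2 and PSME4, reached a 2-fold difference, which 13.8% of all tested genes did with a call. The groups did not overlap for 4 of the 44 genes (7.11% of all tested genes), which were PSMB2, PSMD9 and PSMD12 above and PSME4 below the in vivo embryos.

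**Figure D2:**
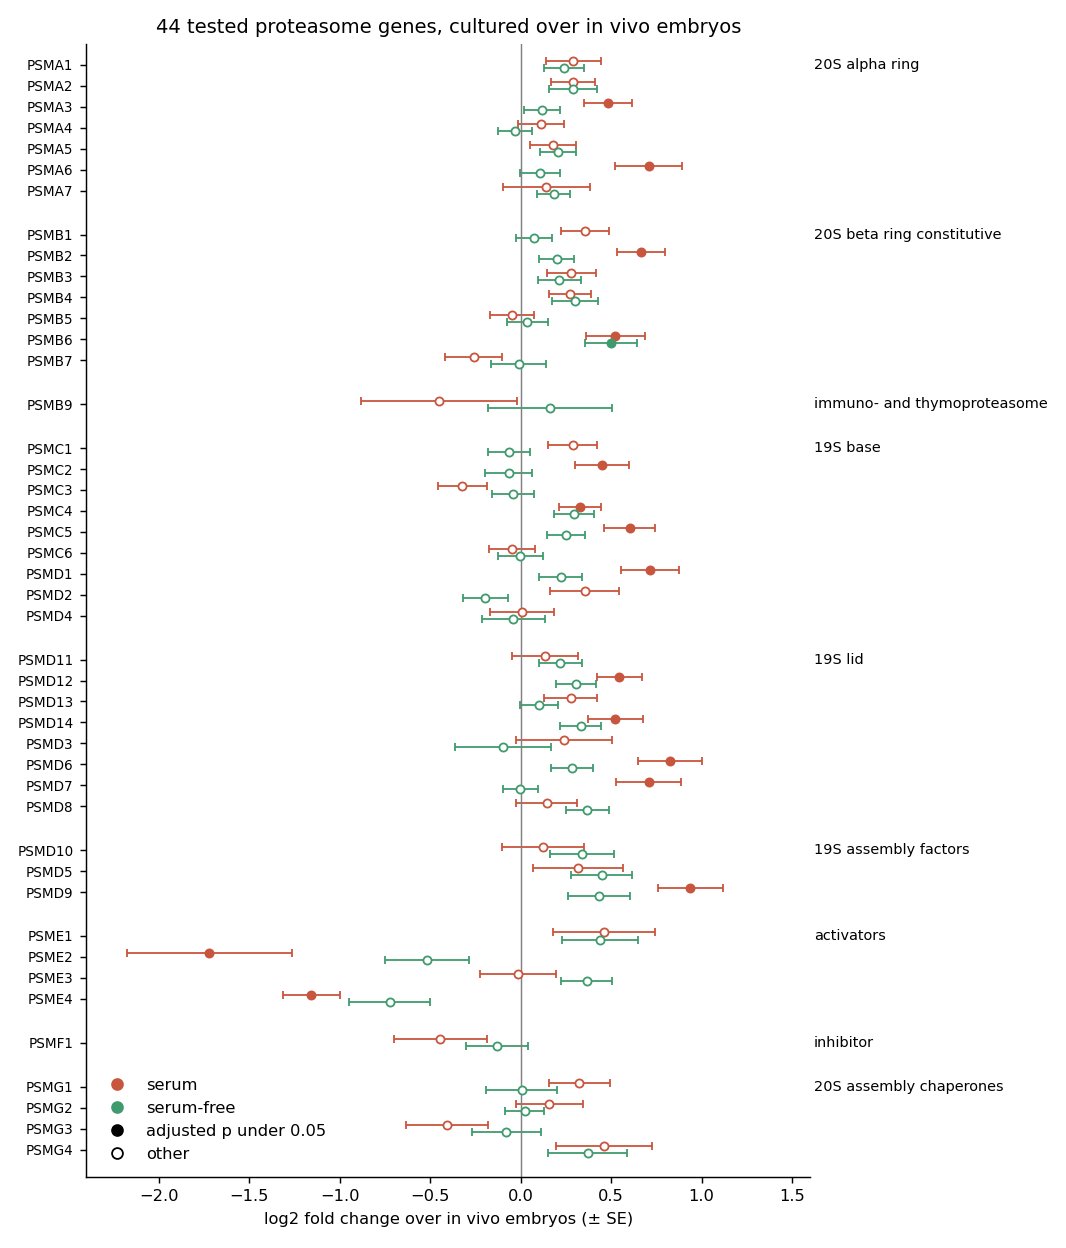
Log2 fold change ± SE (x axis) of the 44 tested proteasome genes, grouped by subcomplex, for serum (red) and serum-free (green) over in vivo embryos, n = 8 per group, with filled points for an adjusted p under 0.05. Both comparisons use the same in vivo embryos. In serum 13 filled points lie right of 0 and PSME2 and PSME4 lie left of it, and in serum-free 1 point, PSMB6, is filled.

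**Figure D3:**
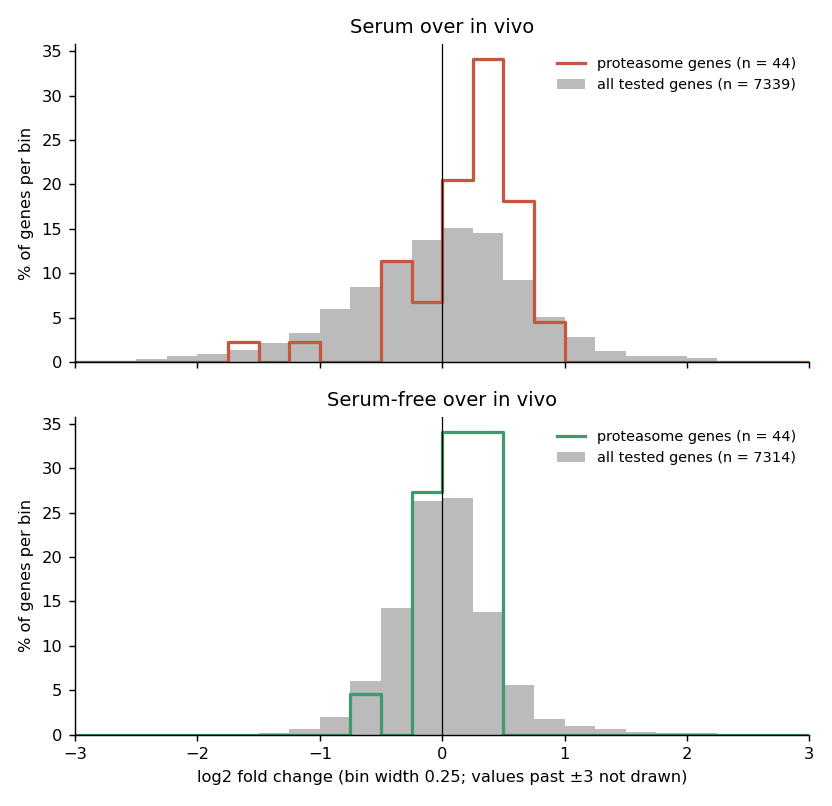
Percent of genes per bin of log2 fold change for all tested genes (grey bars) and the 44 tested proteasome genes (line), for serum (top) and serum-free (bottom) over in vivo embryos. The medians of the proteasome genes are 0.28 and 0.17, against 0.01 and 0.00 for all tested genes.

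PSME4, which encodes the large single-chain activator known for opening the core to acetylated histones, had the smallest adjusted p of the family. Its level was between 146 and 268 CPM with a median of 184 in the in vivo embryos, between 64.6 and 112 with a median of 86.0 in the serum embryos, and between 68.6 and 219 with a median of 95.4 in the serum-free embryos. All serum embryos were below all in vivo embryos, and the serum-free embryos were spread over both, with C1, C2 and C8 between 160 and 219 and the other 5 at 99.9 or less. The log2 fold change of serum over in vivo was −1.16 (SE 0.16, adjusted p = 0.000106, edgeR quasi-likelihood test). Serum-free over in vivo gave −0.72 (SE 0.22, adjusted p = 0.0616) and did not pass.

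PSME2 encodes the beta subunit of the interferon-inducible 11S activator, and PSME1 its alpha partner. PSME2 ranged from 24.8 to 58.7 CPM (median 45.1) in vivo, from 1.84 to 33.3 (median 12.7) in serum and from 17.5 to 44.9 (median 28.6) in serum-free embryos. It fell by 1.72 on the log2 scale in serum embryos (SE 0.46, adjusted p = 0.00929), although the groups overlapped, since B4 was above A4 and A9. The lowest serum embryos were B7, B2 and B5, all among those with the fewest detected genes. B1, the other embryo with few detected genes, was at 21.4 CPM, above every serum embryo except B4. Without the 4 embryos of that kind, which include all male serum embryos, the log2 fold change was −1.20 and still called. In PSME1 the serum embryos (32.5 to 166 CPM, median 133) and in vivo embryos (36.8 to 141 CPM, median 95.2) overlapped over almost the whole range. The log2 fold change of PSME1 was 0.46 (SE 0.28, adjusted p = 0.221), so the partners of this ring had estimates of opposite sign. In the bovine RefSeq annotation PSME1 and PSME2 lie close together with 1 protein-coding gene between them.

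PSME3 encodes the nuclear activator of the same family, which forms rings of its own. Its level was 113 to 151 CPM (median 136) in vivo, 62.6 to 223 (median 132) in serum and 118 to 259 (median 166) in serum-free embryos. The serum group covered the in vivo range on both sides, and neither serum (log2 fold change −0.01, SE 0.21, adjusted p = 0.970) nor serum-free embryos (0.37, adjusted p = 0.132) passed the test. PSMF1, the inhibitor of the core, was at 17.1 to 62.4 CPM in serum and at 36.3 to 76.8 CPM in in vivo embryos, with a log2 fold change of −0.44 (adjusted p = 0.196).

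**Figure D4:**
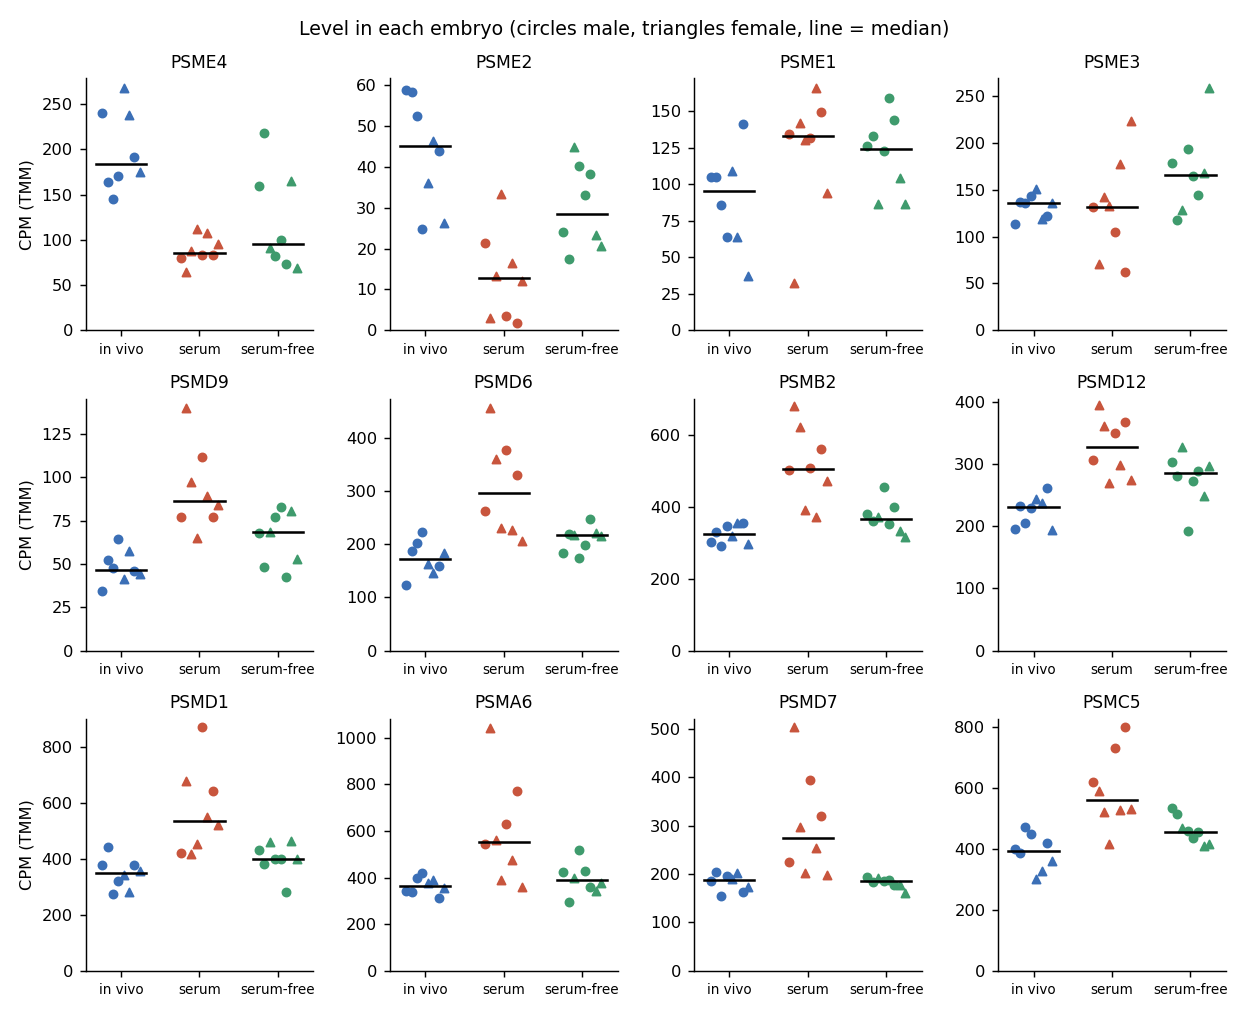
Level in CPM with TMM scaling (y axes, each from 0) of 12 proteasome genes in every embryo of the in vivo, serum and serum-free groups (n = 8 each), with circles for males, triangles for females and a line at the median. PSME4 is lower in all serum than in all in vivo embryos, PSMD9, PSMB2 and PSMD12 are higher in all serum than in all in vivo embryos, and the other genes overlap.

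In the alpha rings 2 of 7 tested genes were called (28.6%, near the share of all tested genes), both higher in serum embryos, and all 7 estimates were positive (0.11 to 0.71). PSMA6 was at 312 to 420 CPM (median 366) in vivo, 360 to 1044 (median 552) in serum and 294 to 518 (median 389) in serum-free embryos. Its log2 fold change of serum over in vivo was 0.71 (SE 0.19, adjusted p = 0.00849). The serum embryos were widely scattered, with B2 highest at 1044 CPM and B4 and B8 within the in vivo range. PSMA3, the other called alpha subunit, rose by 0.48 (adjusted p = 0.0113). PSMA8, which encodes the alpha subunit known from the testis, had no more than 5.53 CPM in any embryo and 0 counts in 8 of the 24 embryos, and it was not tested.

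In the constitutive beta rings 2 of 7 genes were called as well (28.6%, against 28.3% of all tested genes), and 2 of the 7 estimates were negative. PSMB2, a structural beta subunit without a cutting site, was at 292 to 354 CPM (median 325) in vivo, 371 to 681 (median 506) in serum and 315 to 454 (median 365) in serum-free embryos. Every serum embryo was above every in vivo embryo, and the log2 fold change was 0.67 (SE 0.13, adjusted p = 0.00164). Among the subunits that carry the cutting sites the estimates differed. PSMB6, the caspase-like subunit, was called higher in serum embryos (0.52, SE 0.16, adjusted p = 0.0222). PSMB5, the chymotrypsin-like subunit, had a log2 fold change of −0.05 with a 95% interval of −0.29 to 0.19, and PSMB7, the trypsin-like subunit, had −0.26 with an interval of −0.57 to 0.05.

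Of the immunoproteasome subunits, which replace these cutting subunits in immune cells and after interferon, PSMB8 and PSMB10 were at or near 0 and PSMB9 was detected throughout. PSMB8, the counterpart of PSMB5, reached at most 5.25 CPM in vivo (median 0.338), 1.53 in serum (median 0.437) and 6.13 in serum-free embryos (median 1.32), and it had 0 counts in 4, 3 and 1 embryos of these groups. PSMB10, the counterpart of PSMB7, was between 0.199 and 5.41 CPM in vivo (median 1.11), between 0 and 1.25 in serum (median 0.736) and between 0 and 3.79 in serum-free embryos (median 2.07). Neither was tested. PSMB9, the counterpart of PSMB6, was detected in all 24 embryos, at 5.98 to 21.5 CPM (median 12.9) in vivo, 2.46 to 27.1 (median 5.71) in serum and 5.29 to 24.1 (median 12.3) in serum-free embryos. The 3 ranges overlapped, and its log2 fold change in serum was −0.45 (SE 0.43, adjusted p = 0.448). PSMB8 and PSMB9 are separated by 1 protein-coding gene in the RefSeq annotation. PSMB11, the thymus-specific subunit, had 0 counts in all in vivo and serum-free embryos, which allows up to 0.868 CPM in an embryo (3 counts, counting error only), and up to 4 counts in the serum embryos.

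The 19S base had 4 called genes of 9 (44.4%, against 28.3% of all tested genes), all higher in serum embryos. This share of few genes was not tested, and 2 of the 9 estimates were negative (lowest −0.32). PSMD1, the large scaffold of the base, was at 276 to 443 CPM (median 349) in vivo, 417 to 871 (median 536) in serum and 282 to 463 (median 401) in serum-free embryos. The 2 lowest serum embryos lay within the in vivo range, and the log2 fold change was 0.72 (SE 0.16, adjusted p = 0.00341). PSMC5, 1 of the 6 ATPases that unfold the substrate, was at 302 to 473 CPM (median 394) in vivo, 416 to 803 (median 560) in serum and 410 to 536 (median 457) in serum-free embryos. It rose by 0.60 (SE 0.14, adjusted p = 0.00461), with the males B5 and B7 highest and B4 within the in vivo range. The ATPases PSMC2 (0.45, adjusted p = 0.0299) and PSMC4 (0.33, adjusted p = 0.0440) were also called. The call of PSMC2 was lost without A9 or without B3 (largest adjusted p = 0.0570), and that of PSMC4 without any 1 of A2, A3, A7, A9, B5, B6 and B8 (largest adjusted p = 0.0771). With edgeR's exact test PSMC4 was not called, and with a limit of 1 count in any embryo neither of them nor PSMB6 was.

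The 19S lid had 4 called genes of 8 (50%, against 28.3% of all tested genes), all higher in serum embryos. This share of few genes was not tested either, and all 8 estimates were positive (0.13 to 0.83). PSMD6, a structural lid subunit, was at 124 to 223 CPM (median 173) in vivo, 206 to 457 (median 297) in serum and 175 to 248 (median 217) in serum-free embryos, and rose by 0.83 in serum (SE 0.18, adjusted p = 0.00265). PSMD7, the partner of the lid's deubiquitinase, was at 155 to 204 CPM (median 188) in vivo, 198 to 504 (median 276) in serum and 160 to 193 (median 185) in serum-free embryos. Its log2 fold change was 0.71 (SE 0.18, adjusted p = 0.00767), with an overlap of the in vivo embryos and the lowest serum embryos. The deubiquitinase PSMD14 itself, which strips ubiquitin from the incoming protein, rose by 0.52 (adjusted p = 0.0151). PSMD12, another structural subunit, was at 193 to 261 CPM (median 231) in vivo, 269 to 395 (median 328) in serum and 192 to 328 (median 285) in serum-free embryos. Its in vivo and serum embryos did not overlap, and it rose by 0.55 (SE 0.12, adjusted p = 0.00341).

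PSMD9, a chaperone that helps to assemble the 19S base, showed the largest increase of the family. It was at 34.3 to 64.5 CPM (median 46.7) in vivo, 64.7 to 140 (median 86.5) in serum and 42.6 to 82.8 (median 68.2) in serum-free embryos. All serum embryos were above all in vivo embryos, the closest being B4 and A4, and the log2 fold change was 0.94 (SE 0.18, adjusted p = 0.00122). Of the other base chaperones, PSMD10, also known as gankyrin, had a log2 fold change of 0.12 (adjusted p = 0.705), and the third was not called. None of the 4 chaperones of the 20S core was called, at −0.41 for PSMG3 (adjusted p = 0.183), 0.16 for PSMG2 (0.540), 0.32 for PSMG1 (0.156) and 0.46 for PSMG4 (0.198). The 18 tested genes that were not called and are not named here had log2 fold changes between −0.32 and 0.36.

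Removing any single embryo left 13 of the 15 calls in place, the exceptions being PSMC2 and PSMC4, and the number of called genes was between 13 and 21. Without the 4 serum embryos with the fewest detected genes, a setting chosen after seeing the data, 9 genes were called, 8 of them among the 15. Calls over all genes fell too, to 1668 of 8033, from 2074 of 7339 with all embryos. This setting left out all male serum embryos, so only female serum embryos were compared with in vivo embryos of both sexes. The part of sex in its result was not tested. PSMA3, PSMA6, PSMB6, PSMC2, PSMC5, PSMD7 and PSMD14 were lost, with log2 fold changes between 0.19 and 0.38, and PSMD10 was gained (0.54). The serum embryos also differed among themselves: B2 had the highest serum value for 7 of the 13 genes called higher and the lowest serum value for 12 of all 44 tested genes. The coefficient of variation between embryos had a median of 24% over the 42 genes with 15 counts in all 24 embryos in serum, against 15% in vivo and 17.3% in serum-free embryos. The same order held for the 5512 genes with that coverage, at 35.6%, 22.1% and 27.3%.

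Markers of the blastocyst lineages moved with the serum comparison as well. Of 9 trophectoderm markers 7 were in the table, and their summed level was 7478 to 14660 CPM in vivo, 318 to 5057 in serum and 4922 to 28280 in serum-free embryos. Of the 5 that could be tested, the keratins KRT8 (−3.05, adjusted p = 0.00289) and KRT18 and the factors GATA2 and GATA3 fell in serum embryos, and TFAP2C did not pass (0.32, adjusted p = 0.292). CDX2 was detected at no more than 2.48 CPM in any embryo. The 5 hypoblast markers summed to 343 to 595 CPM in vivo, 27.1 to 231 in serum and 128 to 403 in serum-free embryos, with PDGFRA lower in serum (−2.04, adjusted p = 0.00101) and in serum-free (−1.01, adjusted p = 0.00952) than in in vivo embryos. GATA6, the other hypoblast marker that could be tested, had 0.16 in serum (adjusted p = 0.709) and −0.21 in serum-free embryos (adjusted p = 0.722), GATA4 was at 5.71 CPM or less and SOX17 at 0 in all in vivo and serum embryos. The 4 inner cell mass markers overlapped between the groups (208 to 271, 172 to 314 and 130 to 409 CPM), and of the 2 tested in serum SOX2 was higher (1.25, adjusted p = 0.0271), while POU5F1 had an estimate of the other sign and did not pass (−0.55, adjusted p = 0.0979). The part of these lineage markers in the proteasome result was not tested. Among cells that could be carried over, the 7 leukocyte markers summed to 14.5 CPM or less in every embryo, with TYROBP at 0 in all in vivo embryos, the 7 cumulus and granulosa markers to 35.6 or less, the 2 uterine and oviduct epithelial markers to 17.3 or less and HBB to 2.85 or less.

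Serum-free embryos differed from in vivo embryos past the test in 1 of 44 proteasome genes, PSMB6, where 5.82% of all 7314 tested genes were called and 3.38% were called higher. PSMB6 was at 152 to 255 CPM (median 181) in vivo, 185 to 361 (median 280) in serum and 208 to 379 (median 249) in serum-free embryos. The serum-free embryos overlapped the in vivo embryos, the log2 fold change was 0.50 (SE 0.14, adjusted p = 0.0425), and the call was lost without any 1 of A1, A2, A6, A7, A8, A9, C1, C4 and C7, with a largest adjusted p of 0.0788, while 2 genes were called without A4, C2, C8 or C10. Over all genes the fits without A4, C2, C8 or C10 called 337 to 382, against 426 in the main fit. None of the 44 genes had groups that did not overlap, against 0.889% of all tested genes. At an unadjusted p under 0.05 there were 17 genes of the family and 1571 of all 7314 tested genes, and the median log2 fold change was 0.17. The 13 genes called higher in serum had serum-free estimates from −0.07 for PSMC2 up to 0.50 for PSMB6, and the 2 called lower had −0.72 (PSME4) and −0.52 (PSME2). The 2 comparisons share the in vivo embryos.

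The direct comparison of the culture systems called 6 of 44 genes, all lower in serum-free than in serum embryos, where 16.3% of all 7181 tested genes were called and 8.29% were called lower. They were PSMA6, PSMB2, PSMC2, PSMD1, PSMD6 and PSMD7, subunits of both core rings, the base and the lid. PSMD7 changed most (log2 fold change −0.71, SE 0.18, adjusted p = 0.0161) and was the only gene of the family whose serum and serum-free embryos did not overlap, against 2.40% of all tested genes. PSMC2 fell by 0.51 in serum-free embryos (adjusted p = 0.0237), and the remaining 4 had values between −0.60 and −0.46 (adjusted p = 0.0335 to 0.0440). PSME2 had the largest estimate in the other direction (1.21, SE 0.46, adjusted p = 0.0789) and did not pass, and PSME4 gave 0.43 (adjusted p = 0.205). The calls of PSMC2 and PSMD7 were kept without any single embryo. The number of calls depended on single embryos, being 3 without B2, B3, B5 or C6 and 2 without B7 or C10. Calls over all genes were 785 to 1091 in those fits, against 1171 with all embryos. With a limit of 1 count in any embryo PSMD7 alone was called (772 of all 19155 tested genes). Of the tested trophectoderm markers, KRT8, KRT18, GATA2 and GATA3 were higher in serum-free than in serum embryos, and TFAP2C did not pass (−0.24, adjusted p = 0.480). No tested inner cell mass or hypoblast marker passed, with estimates from −0.68 for SOX2 to 1.04 for PDGFRA. The part of these markers in this result was not tested either.

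The serum comparison was also made within each sex. In males, 3 serum against 5 in vivo embryos, 16 of 44 genes were called, 13 higher and 3 lower, where 19% of all 7762 tested genes were called. The lower genes were PSME4 (log2 fold change −1.15, adjusted p = 0.00440), PSME2 (−2.43, adjusted p = 0.030) and the core chaperone PSMG3 (−1.04, adjusted p = 0.0441). PSMG3 was at 20.6 to 42.8 CPM in the male and at 52.2 to 60.8 CPM in the female serum embryos. Named after their values were seen, PSMA1, PSMA2 and PSMB1 were called higher in males and not in the pooled comparison. The count rests on few embryos, since it was 9 without A2 or A3 and 5 without B7. Over all genes 934, 1014 and 797 were called without A2, A3 and B7, against 1471 with all male embryos. The 3 male serum embryos were also among those with the fewest detected genes, and the part of this was not tested. In females, 5 serum against 3 in vivo embryos, edgeR called 0 of 44 genes, where 0.418% of all tested genes were called, although 12 genes had an unadjusted p under 0.05 (1719 of all 8138 tested genes) and DESeq2 called 5 (716 of all 8138). Without B2 the female count was 3 (596 of all 8357).

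The estimates of the sexes were not shown to differ. PSME4 gave −1.25 in females (SE 0.24, adjusted p = 0.0612) with no overlap of the groups. In females the groups did not overlap for 14 of the 44 genes and for 1858 of all 8138 tested genes. PSMD9 gave 1.02 in females and 0.86 in males, and PSMG3 gave −0.14 in females (SE 0.22, adjusted p = 0.732). In the test of the interaction of sex and serum 0 of 44 genes and 0% of all tested genes were called, with 3 genes at an unadjusted p under 0.05 and a smallest adjusted p of 0.782. The interaction of sex and serum-free medium gave 0 of 44 (0% of all genes), with 1 gene at an unadjusted p under 0.05 and a smallest adjusted p of 0.740, and DESeq2 called 0 genes of the family in both. Within a sex, serum-free over in vivo gave 0 calls in males (1.76% of all genes, 12 at an unadjusted p under 0.05 against 1377 of all 7662 tested genes, 1 with DESeq2) and 0 in females (0.304%, 6 against 1153 of all 8211, 1 with DESeq2).

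**Figure D5:**
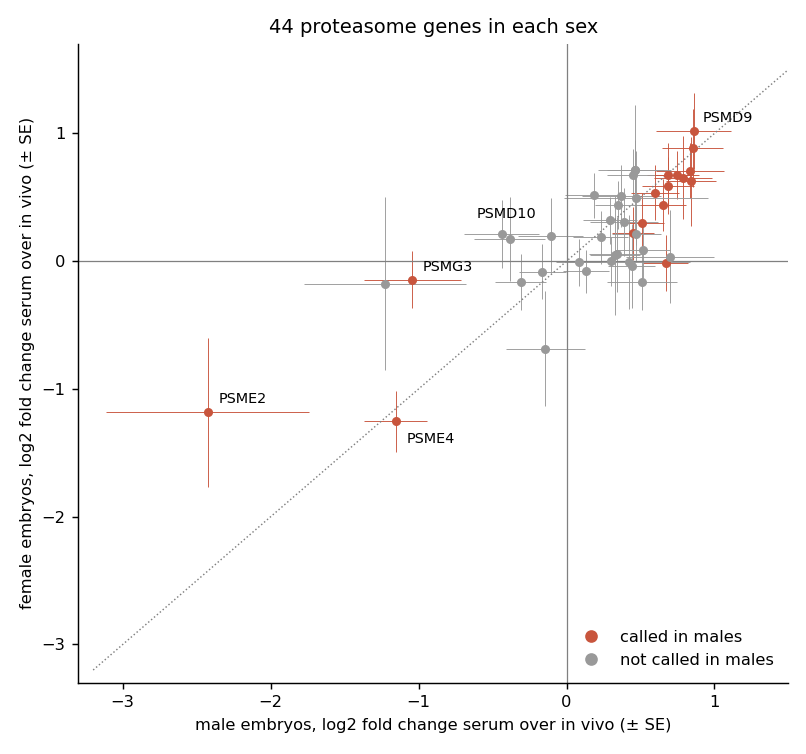
Log2 fold change ± SE of serum over in vivo embryos for the 44 tested proteasome genes in males (x axis, 3 against 5 embryos) and females (y axis, 5 against 3 embryos), in red where called in males, with a dotted line of equal values. PSME4 lies near the line (−1.15 and −1.25), and PSMG3 (−1.04 and −0.14) and PSME2 (−2.43 and −1.18) lie above it.

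Male and female embryos were compared within each group, and edgeR called no proteasome gene. The counts were 0 of 44 in vivo (1.26% of all tested genes, 7 genes at an unadjusted p under 0.05, smallest adjusted p = 0.166), 0 of 43 in serum (0.173%, 3 genes, 0.532) and 0 of 44 in serum-free embryos (0.152%, 4 genes, 0.422).

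Genes that work with the proteasome but carry other names were looked at as lists. Of 8 tested proteasome genes with other names, 1 rose and 2 fell in serum embryos (median log2 fold change 0.24). Over all 7339 tested genes 14.8% were called higher and 13.4% lower. SHFM1, a small lid subunit, rose by 1.01 (SE 0.18, adjusted p = 0.000642). The deubiquitinase UCHL5, which docks on 19S, fell by 0.98 (SE 0.22, adjusted p = 0.00379), and PAAF1, a factor that binds the 19S ATPases, fell by 0.95 (SE 0.25, adjusted p = 0.00916). POMP, the maturation factor of the core, had 0.31 (adjusted p = 0.0617), and ADRM1, a ubiquitin receptor, also had 0.31 (adjusted p = 0.0764). In serum-free over in vivo embryos only the deubiquitinase USP14 of this list was called (0.45, adjusted p = 0.0325), against 5.82% of all tested genes.

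Among 7 tested genes for the transcription and processing of NFE2L1, the factor that induces proteasome genes when proteasome capacity is short, 0 were called in the 3 comparisons. Of all tested genes 28.3% (serum over in vivo), 5.82% (serum-free over in vivo) and 16.3% (serum-free over serum) were called. NFE2L1 itself had 0.62 in serum (SE 0.25, adjusted p = 0.0676) and 0.34 in serum-free embryos (adjusted p = 0.196). Where 28.3% of all tested genes were called in serum embryos, 2 of 13 tested genes for ubiquitin and its delivery rose and 2 fell. Among them the segregase cofactor NPLOC4 rose by 0.93 (adjusted p = 0.0385) and the shuttle factor RAD23B fell by 0.58 (adjusted p = 0.0354). The polyubiquitin gene UBB was lower in serum-free than in in vivo (−0.37, adjusted p = 0.0112) and serum embryos (−0.51, adjusted p = 0.0328).

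Of 8 tested genes for class I antigen presentation and the interferon factors that act with the immunoproteasome, 2 fell in serum embryos and 0 rose. Of all tested genes 28.3% were called. The median log2 fold change of this list was −0.48. The 2 lower genes were the transcription factor IRF1, which induces immunoproteasome genes (−1.60, SE 0.54, adjusted p = 0.0322), and B2M, the light chain of class I molecules (−0.58, SE 0.21, adjusted p = 0.0460). IRF1 was also lower in serum-free than in in vivo embryos (−1.02, SE 0.20, adjusted p = 0.00473). PSMB9, described above, was not called in any comparison.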

How the data were processed

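The RNA of 24 single bovine early blastocysts was sequenced with a low-input cDNA kit that does not keep the strand. The authors mapped the reads to the bovine genome (UMD3.1, per the submitters' processing notes). They deposited raw counts of fragments that mapped uniquely to exons of each gene, so genes with near-identical copies or an antisense partner are uncertain. All 24 count columns were matched to embryos by name.

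Comparisons used edgeR 4.0.16 in R 4.3.3 with TMM factors and the quasi-likelihood test, in fits holding only the groups compared. A gene needed at least 15 counts in every embryo of at least 1 group, and called genes had a Benjamini-Hochberg adjusted p under 0.05. SEs are the log2 fold change over the square root of its F value, and 95% intervals use 1.96 SE. Alternatives were edgeR's exact test, DESeq2 1.42.0, other size factors, count limits, thinned counts, sex as a covariate, a joint fit and leaving out each embryo. The procedure was tested on simulated data.

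Subcomplexes, pathway lists and lineage markers, and the 48 genes, were chosen with earlier results of these data known. Named with values are all genes called in a comparison of all embryos, the immunoproteasome subunits and their counterparts, activators, inhibitor, assembly chaperones, PSMA8, PSMB11 and PSMD10. Full values are given for the 10 called genes with the largest change in serum, PSMB8, PSMB9, PSMB10 and the activators. Gene neighbours came from a RefSeq table of another assembly that matched all 48 symbols, and no coordinates or sequences are given. Single values of some genes in the pathway lists are not reported here.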

Additional observations from a re-analysis of the deposited data

Results flagged for a closer look

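Levels of the 15 proteasome genes described in full were examined for single embryos far from the other 7 of their group, as the gap to the nearest embryo divided by the range of the group (Dixon's ratio, at its 95% critical value). Of 45 groups 5 passed it, where chance alone passes about 1 in 20 if values are normally distributed. PSMB8 and PSMB10 had few or 0 counts in many embryos, so this rate need not hold for them. PSMB8 was highest in the in vivo embryo A2 at 5.25 CPM, with the next at 1.35 (ratio 0.743), and in the serum-free embryo C4 at 6.13 CPM, with the next at 2.89 (ratio 0.528). PSMB10 was highest in the in vivo embryo A4 at 5.41 CPM, with the next at 2.45 (ratio 0.568). PSMD1 was lowest in the serum-free embryo C7 at 282 CPM, with the next at 381 (ratio 0.546). PSMD7 was lowest in the serum-free embryo C10 at 160 CPM, with the next at 178 (ratio 0.528).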

How the results depend on the processing

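For serum over in vivo embryos the 15 calls were 12 to 18 under the 8 other planned settings without a block. Over all genes these settings called 1653 to 2409, against 2074 in the main fit. The proteasome calls were 13 to 21 without single embryos (1747 to 2238 over all genes). They were 9 without B1, B2, B5 and B7, a setting with no male serum embryo (1668 of all 8033 tested genes). For serum-free over in vivo the 1 call became 2 with edgeR's exact test, 3 with DESeq2, 0 with a limit of 1 count in any embryo, 0 in one fit over all 24 embryos and 0 to 2 without single embryos. Over all genes the calls in this order were 575, 666, 260, 112 and 275 to 468, against 426 in the main fit. For serum-free over serum the 6 calls became 1 with the limit of 1 count in any embryo, 12 in one fit over all 24 embryos and 2 to 8 without single embryos. Over all genes the calls were 772, 1793 and 690 to 1342 in turn, against 1171 in the main fit. In males 16 calls in serum became 5 to 20 without single embryos, where the calls over all genes went from 1471 to between 797 and 2366. In females 0 calls in serum became 1 with the exact test, 5 with DESeq2, 1 with 15 counts in every embryo of both groups and 0 to 3 without single embryos. Their calls over all genes were 502, 716, 48 and 2 to 596 in turn, against 34 in the main fit. In serum-free males DESeq2 called 1 (463 over all genes, against 135 in the main fit). In serum-free females DESeq2 called 1 (228 over all genes) and the limit of 1 count called 1 (296), against 25 in the main fit. The cause of these changes was not tested, except that the limit of 1 count tests more genes.

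With the number in the embryo's label as a replicate block the calls were 6, 0 and 0 in the 3 comparisons of all embryos. Over all genes the block gave 1077 calls of 7467, 160 of 7463 and 30 of 7306. The numbers do not pair the embryos: over 7 shared numbers the correlation of deviations was between −0.123 and 0.0830 for serum and in vivo, and 0 pairs exceeded 0.1 in any comparison. The medians moved by less than the spread between embryos under each scaling, from 0.27 to 0.35 for serum, from 0.17 to 0.20 for serum-free and from −0.11 to −0.03 for serum-free over serum. Over the genes called, no alternative changed a sign, and 84 of 564 gene and setting pairs lost the call. With 3 male serum embryos and 3 female in vivo embryos the results within a sex are the least precise.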
